A study of Mus musculus with 20 samples.

Results

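The 38 Hox genes described here lie in 4 clusters, Hoxa (10 members), Hoxb (10), Hoxc (9) and Hoxd (9), and were chosen by symbol from 33723 annotated mouse genes. Each member was taken as its gene body plus 2 kb on each side in NCBIM37 (mm9) coordinates. Overlapping windows were joined, which gave 374649 bp, or 0.0146% of the ungapped genome. The windows of Hoxa span chr6:52112350-52210874 on the minus strand before flanks, those of Hoxb chr11:96055630-96229570, those of Hoxc chr15:102751534-102867274 and those of Hoxd chr2:74506367-74603200, all on the plus strand.

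Hox genes encode homeodomain transcription factors that assign position along the head-to-tail axis of the embryo. Within a cluster the genes sit in the order in which they are expressed along that axis, so that low numbered (anterior) paralogues act in the hindbrain and neck and high numbered (posterior) paralogues act in the lower trunk, limbs and tail. The clusters are rich in CpG dinucleotides and are known as broad targets of Polycomb and Trithorax chromatin regulators. 5-formylcytosine (5fC) is an oxidation product of 5-methylcytosine made by TET enzymes, and thymine DNA glycosylase (TDG) removes it, so that tissue without TDG keeps more of it.

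The study pulled down 5fC containing DNA from tissues of E11.5 mouse embryos with a cleavable biotin probe and called peaks in each library on its own. Tdg null embryos, in which a neo cassette replaces the coding sequence of the catalytic domain in every cell, were set against WT littermates. Hindbrain was sampled from 4 null and 4 WT embryos of litters A, O, Q and Z, whereas heart, liver and carcass (the remainder of the embryo) came from 2 null and 2 WT embryos of pair a and pair b, so the 3 tissues of one embryo are not independent. One null liver library, that of pair b, held 228 peaks against 101344 or more in every other null library, and was kept apart from all results below. The deposited lists give peak positions only, so no read depth or peak height stands behind the values, and a region without a peak is described as listing none.

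The 9 null libraries used here held 101344 to 254319 peaks that covered 2.68% to 8.09% of the genome, and the 10 WT libraries held 1563 to 42012 peaks that covered 0.0349% to 0.939%. The Tdg gene window itself held peaks in 8 of 9 null libraries and in 3 of 10 WT libraries. A 5fC peak there does not check the genotype, since the peak lists carry no allele. The lists report a DNA modification and not expression, so marker genes bear on a tissue label only through their peaks. Heart marker genes had a relative coverage of 5.76 and 7.38 in null heart, against 0.768 to 1.01 in null hindbrain and 0.492 and 0.552 in null carcass. In null liver pair a they stood at 4.46, above the 2.38 of liver marker genes, and liver marker genes did not set the liver apart, with 1.61 to 2.46 in the 8 null libraries of the other tissues.

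Stretches of Hox sequence that were under peaks in both null carcass libraries are shown first, because the results turn on which Hox sequences carried 5fC peaks at all. They are the longest such stretch in Hoxb and in Hoxd, and the one stretch also under a peak in null heart and null liver. Each line is the 300 bases with most CpGs and no annotated UTR, plus strand of NCBIM37, with CpG in capitals.

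Hoxb3 exon, chr11:96207201-96207500: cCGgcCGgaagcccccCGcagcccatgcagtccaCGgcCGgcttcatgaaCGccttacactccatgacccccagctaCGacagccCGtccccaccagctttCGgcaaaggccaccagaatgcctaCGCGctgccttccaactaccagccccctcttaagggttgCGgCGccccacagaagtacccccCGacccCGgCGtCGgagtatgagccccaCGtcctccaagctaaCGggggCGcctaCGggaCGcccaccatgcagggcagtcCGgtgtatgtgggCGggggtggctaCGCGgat
Hoxd3 exon, chr2:74582071-74582370: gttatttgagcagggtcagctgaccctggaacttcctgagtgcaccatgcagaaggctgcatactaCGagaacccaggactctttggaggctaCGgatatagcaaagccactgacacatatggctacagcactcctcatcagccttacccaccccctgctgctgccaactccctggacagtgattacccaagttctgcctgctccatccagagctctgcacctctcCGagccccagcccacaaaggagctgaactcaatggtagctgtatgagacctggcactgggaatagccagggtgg
Hoxb3 intron, chr11:96195711-96196010: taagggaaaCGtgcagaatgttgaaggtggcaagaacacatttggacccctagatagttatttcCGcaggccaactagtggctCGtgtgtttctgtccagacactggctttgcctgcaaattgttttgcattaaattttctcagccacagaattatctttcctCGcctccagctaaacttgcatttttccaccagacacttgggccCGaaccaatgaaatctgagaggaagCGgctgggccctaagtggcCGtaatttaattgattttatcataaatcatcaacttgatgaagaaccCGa

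The exon stretch of Hoxb3 held 26 CpGs in 300 bases, whereas that of Hoxd3 held 3 and the intronic stretch of Hoxb3 held 8. Short letter patterns bound by Hox related or retinoic acid related factors were searched on both strands. TGATNNAT, a PBX-HOX pattern, was found 1 time in the Hoxb3 intron and in neither exon stretch. AGGTCA, a retinoic acid receptor core motif, and TGACAG, a MEIS pattern, were found in none of the 3. Among 86903 null carcass peaks on the 4 chromosomes that carry a cluster, the central 300 bases held TGATNNAT in 19.6%, TGACAG in 27.6% and AGGTCA in 24.9%, and CG in 99.7%.

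In Tdg null hindbrain no Hox gene carried a 5fC peak. The windows of all 38 members held 0 bases under peaks in null hindbrain A, O, Q and Z, although these libraries listed 120516, 104110, 132406 and 129748 peaks. An even spread of those peaks would have put 15.2 to 19.4 of them in the Hox windows. A count of 0 allows a share of up to 0.00288% of the peaks in the smallest of the 4 libraries (3 peaks of the total, counting error only), against the 0.0146% of the genome that the windows make up. For comparison, no base under a peak in any null hindbrain was found for 37.3% of all annotated genes and for 25.6% of 14298 protein-coding genes with windows in the members' range of 5853 to 53981 bp. Neighbouring members share sequence and surroundings, so the 38 genes are not 38 independent observations.

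The empty stretches were longer than the gene windows. Around Hoxa, the interval from the first to the last member with its flanks (102.5 kb) lay in a run without any peak of 142 kb in null hindbrain A, 227 kb in O, 134.3 kb in Q and 141.9 kb in Z. Around Hoxc these stretches were 167.4 to 225 kb long and around Hoxd 138.7 to 163.6 kb. Hoxb was empty over 250.4, 219.8 and 215 kb in hindbrains A, O and Q. In hindbrain Z it held a single peak of 200 bp at chr11:96076101-96076300, between Hoxb13 and Hoxb9 and outside all gene windows. Of 25443 tiles of 100 kb across the genome, 11.5% had no base under a peak in any null hindbrain. Among the 43 tiles that were at least as dense in CpG as the Hoxb interval (20.8 CpG per kb), 6.98% were empty in this way. These were 3 tiles, and they were the same 3 of the 43 that overlapped a Hox cluster.

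**Figure D1:**
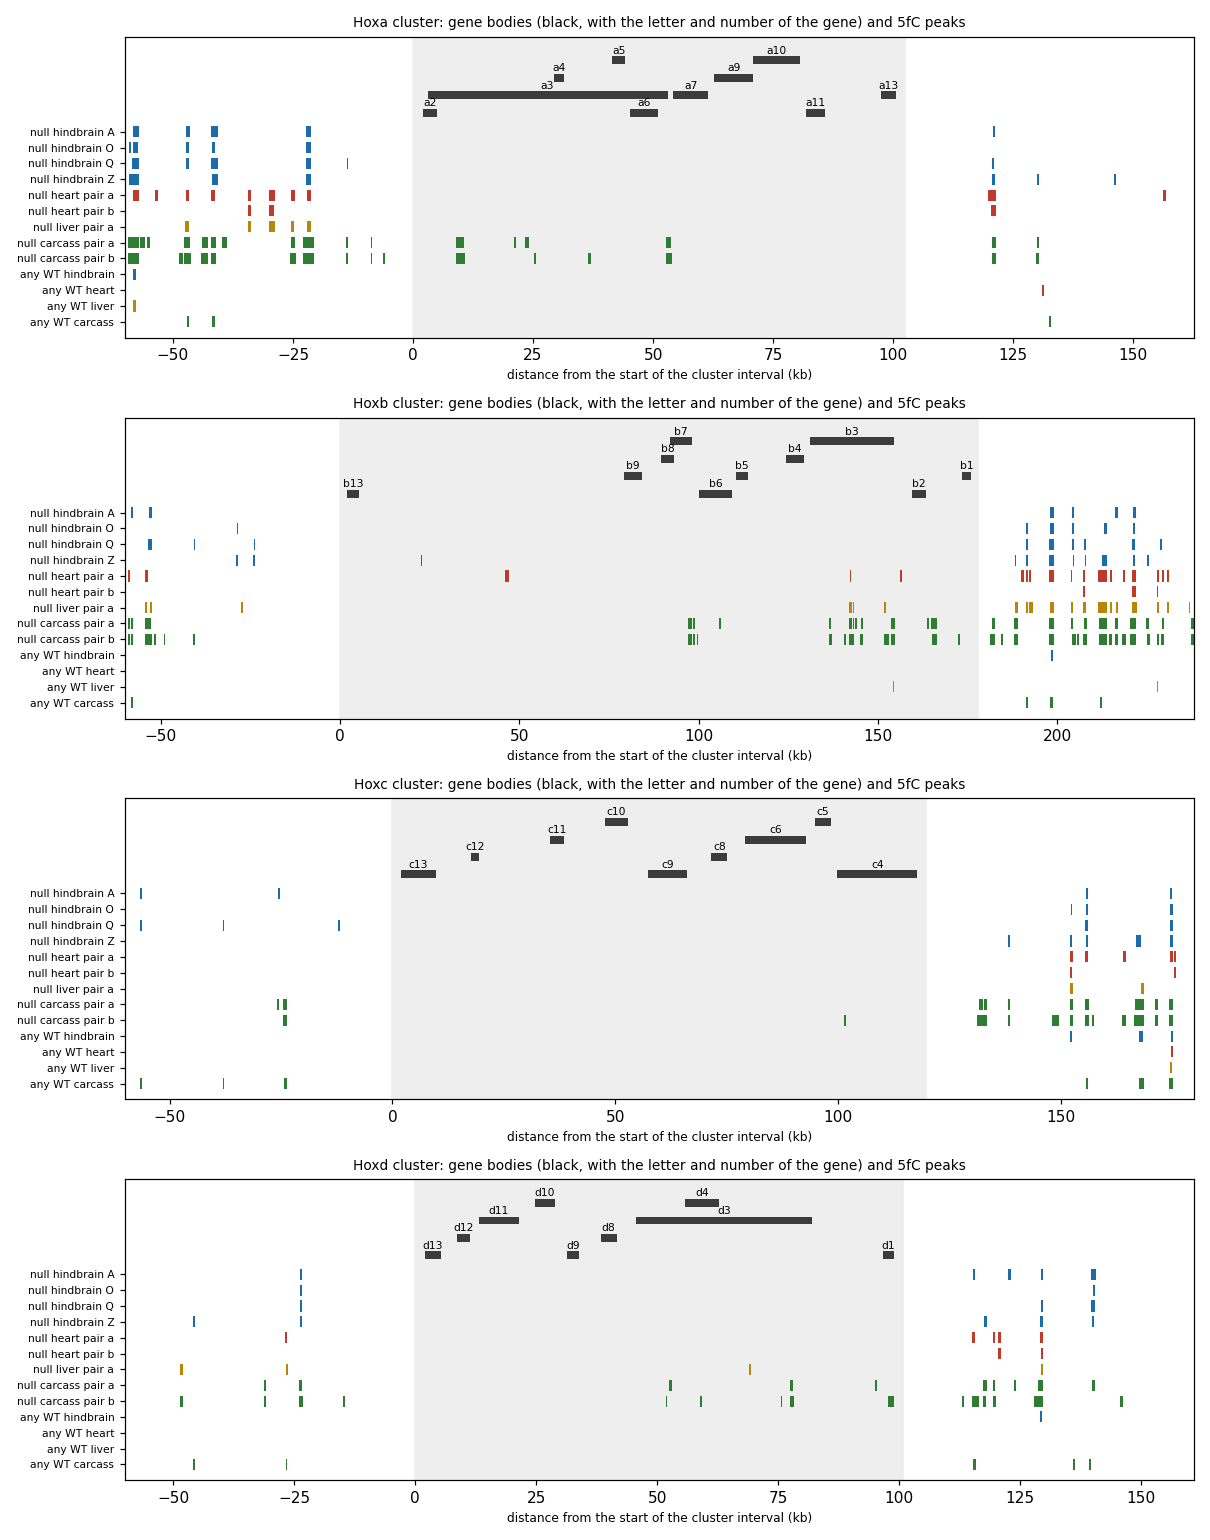
5fC peaks (coloured ticks, drawn at least 0.35 kb wide) of each null library and of all WT libraries of a tissue together, along the 4 Hox clusters, with distance in kb from the start of the cluster interval (grey) and gene bodies in black. The 4 null hindbrain rows are empty inside the grey intervals except for 1 peak of hindbrain Z in Hoxb, while the 2 null carcass rows hold peaks in Hoxa, Hoxb and Hoxd.

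The carcass was the tissue in which Hox windows carried most peaks. The pooled Hox windows were covered over 3.34% of their bases in null carcass pair a and 4.24% in pair b, by 19 and 23 peaks. They were covered over 0.187% in null heart pair a, 0% in null heart pair b and 0.561% in null liver pair a, by 2, 0 and 4 peaks. Both carcasses were thus above all 7 null libraries of the other tissues. Relative coverage, the percent of window bases under peaks divided by the percent of the genome under peaks in the same library, was 0.619 and 0.562 in the carcasses, 0.0231 and 0 in the hearts, 0.185 in the liver and 0 in the 4 hindbrains. All 9 null libraries therefore listed less over the Hox windows as a whole than over the genome.

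Averaged over tissues within an embryo, relative coverage was 0 in the 4 hindbrain embryos, 0.276 in the embryo of pair a and 0.281 in that of pair b. The mean over the 6 null embryos was 0.0928, and it lay below 1 in 6 of 6 (exact two-sided sign-flip test, p = 0.03125, the smallest that 6 embryos allow, and 0.03125 after adjustment over the pooled windows and 4 clusters). The Hox windows are dense in CpG, with 27.1 CpG per kb against 8.34 in the genome, and 5fC peaks in these libraries are not even over CpG density. Against bins of the same CpG number the carcass values fell to 0.342 and 0.334, and against bins of the same GC content to 0.364 and 0.346.

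The plot of coverage by CpG number gives the same comparison within classes of 500 bp bins. In the class of 10 to 19 CpGs, the genome was covered over 20.2% and 25.6% in the null carcasses and the Hox windows over 3.4% and 5.2%. In the null hindbrains the genome was covered over 12.7% to 16.1% in this class and the Hox windows over 0%. In bins of 20 or more CpGs the carcasses covered 2.37% and 3.66% of Hox bases against 5.75% and 6.97% of the genome. Bins of 0 to 4 CpGs ran the other way in the carcasses, with 4.54% and 3.29% of Hox bases against 1.88% and 2.97% of the genome.

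**Figure D2:**
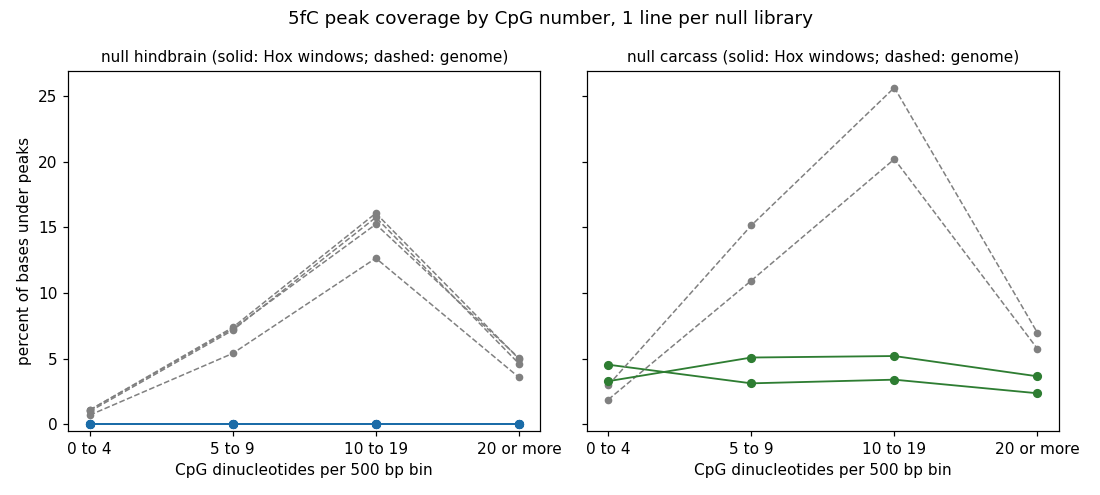
Percent of bases under 5fC peaks in 500 bp bins grouped by CpG number, for null hindbrain (left, 4 libraries) and null carcass (right, 2 libraries), with solid lines for the Hox windows and dashed lines for the genome. The hindbrain Hox lines lie at 0 in every class, and the carcass Hox lines lie under the genome in each class from 5 CpGs upward.

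The 4 clusters differed in the carcass. Hoxb was covered over 7.63% and 9.89% of its windows in pair a and pair b, Hoxa over 3.998% and 4.103%, Hoxd over 1.78% and 2.90%, and Hoxc over 0% and 0.207%. The order of the clusters was the same in both embryos. Hoxb was also the only cluster with relative coverage above 1, at 1.42 and 1.31, and it stood at 0.739 and 0.735 against bins of the same CpG number. Relative coverage of Hoxa was 0.742 and 0.543, that of Hoxd 0.331 and 0.384, and that of Hoxc 0 and 0.0273. The single Hoxc peak, of 200 bp, lay in the Hoxc4 body at chr15:102850901-102851100 in pair b alone. Over the 6 null embryos each cluster had a mean under 1, at 0.0865 for Hoxa, 0.228 for Hoxb, 0.00228 for Hoxc and 0.0565 for Hoxd (exact sign-flip p = 0.03125 for each, 0.03125 adjusted over 5 tests). Counted by number of peaks, the Hoxb call was lost (0.303, exact sign-flip p = 0.0625), as 1 embryo no longer lay below 1.

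Coverage in the carcass also followed the paralogue number. Windows of groups 1 to 4 (11 members, 171972 bp) had a relative coverage of 1.11 and 1.06 in the 2 carcasses, and of 0.648 and 0.661 against bins of the same CpG number, which puts them below rather than above 1. Windows of groups 5 to 8 (11 members, 90444 bp) had 0.677 and 0.483. Windows of groups 9 to 13 (16 members, 133073 bp) had 0 in both. No null library of any tissue listed a peak in the windows of these 16 posterior genes, which include the Hox9 to Hox13 genes of lower trunk, limb and genital patterning. The posterior windows were the densest in CpG of the 3 groups, at 30.9 per kb against 29.6 in the middle and 23.2 in the anterior group. The annotated body of Hoxa3 runs on past Hoxa6, so its window also holds Hoxa4, Hoxa5 and Hoxa6. Without Hoxa3, an alternative chosen after seeing the data, the anterior group stood at 0.927 and 1.01.

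Null hindbrain was at 0 in the anterior and middle groups, so it lay below null carcass by 1.09 in mean relative coverage for the anterior group and by 0.580 for the middle group. Hindbrain minus carcass, the middle difference was -0.322 without flanks, -0.319 against GC-matched bins and -0.308 against CpG-matched bins, and the anterior difference was -0.672 and -0.654 against these bins. With 4 hindbrains against 2 carcasses, both differences had exact two-sided permutation p = 0.133, the smallest that this design allows. The anterior minus posterior difference gave the same value, 1.09 higher in carcass (exact permutation p = 0.133). Hindbrain minus null heart, the anterior difference was -0.0251 (exact permutation p = 0.667), and the middle and posterior groups were at 0 in all 6 libraries. The design cannot reach 0.05 in either comparison.

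**Figure D3:**
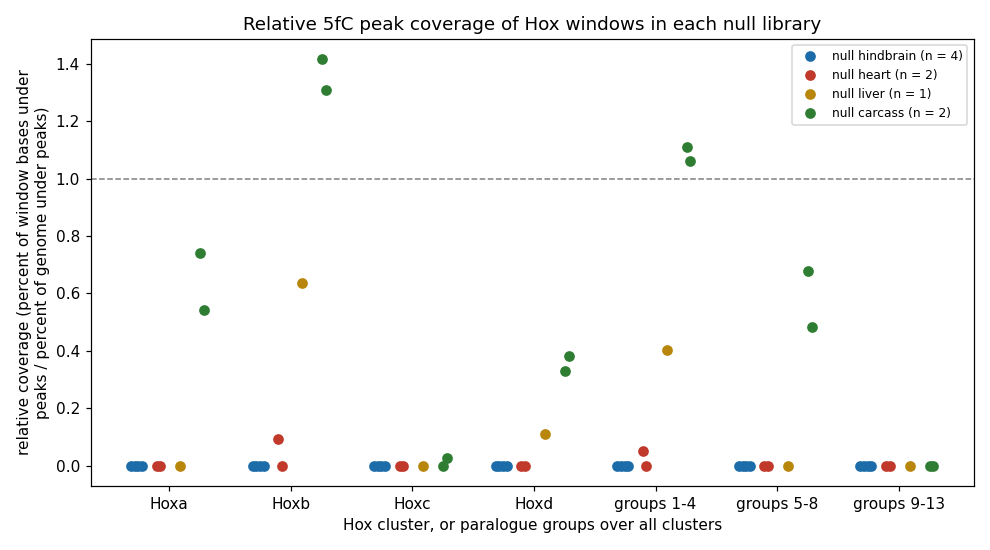
Relative coverage (percent of window bases under peaks divided by the percent of the genome under peaks) of each Hox cluster and of 3 sets of paralogue groups, 1 point per null library, coloured by tissue, with the dashed line at 1. Carcass points stand above all other tissues in Hoxa, Hoxb, Hoxd and groups 1-8, and all points lie at 0 for groups 9-13.

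Of the 38 members, 12 had a peak in their window in at least 1 null library, 9 had one in both null carcasses, and 26 had none in any of the 9 null libraries. Windows include the 2 kb flanks, and only Hoxa3, Hoxb3, Hoxb7 and Hoxd3 had a peak in the gene body itself in both null carcasses. A peak in both null carcasses was seen in 47.6% of all genes. Having no base under a peak in any null library was seen in 26.4% of all genes and in 15.3% of the protein-coding genes of the members' window length. The 26 comprised 3 of 11 anterior members (Hoxa2, Hoxa4 and Hoxb4), 7 of 11 middle members (Hoxa5, Hoxb5, Hoxb8, Hoxc5, Hoxc6, Hoxc8 and Hoxd8) and 16 of 16 posterior members. By cluster they were 7 of 10 in Hoxa, 5 of 10 in Hoxb, 8 of 9 in Hoxc and 6 of 9 in Hoxd. The median member had 0% of its window covered in null carcass, against a median of 2.16% over all genes and 3.11% over the protein-coding genes of similar window length.

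Hoxb3, an anterior gene active in the hindbrain and neck region, had the highest mean coverage over the null libraries. Its window was covered over 14.6% in null carcass pair a, 22.7% in pair b, 2.55% in null heart pair a, 6.58% in null liver pair a and 0% in null heart pair b and the 4 null hindbrains. It was the only member with a peak in 3 null tissues. Hoxb7, a middle gene of the trunk, came next, with 17.9% and 20.8% in the carcasses and 0% in the 7 other null libraries. The Hoxb6 window was covered over 8.40% in each carcass, and part of this is shared with Hoxb7, since peaks between the 2 gene bodies fall in both windows.

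Hoxb2, which patterns the hindbrain and its motor neurons, had 11.2% and 5.00% of its window covered in the carcasses. Hoxb1, active in a single hindbrain segment, had 7.69% of its window covered in pair b and 0% in pair a. The peaks of both genes lay in the flanks and not in the gene bodies. In Hoxd, the window of Hoxd1 was covered over 8.11% and 17.8%, with no base shared between the peaks of the 2 embryos. The pair a peak lay in the flank and the pair b peak in the gene body. Hoxd3 was covered over 2.73% and 3.72% in the carcasses and 0.744% in null liver pair a. Hoxd4, whose body lies within that of Hoxd3, was covered over 3.58% in pair b alone. None of these genes had a peak in null hindbrain, so a peak in both carcasses by itself sets the 2 groups apart.

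In Hoxa, peaks touched the windows of Hoxa7 (9.68% and 10.6%), Hoxa3 (7.04% and 7.22%) and Hoxa6 (3.58% in each carcass). Hoxa7 and Hoxa6 owe their values to 1 stretch, chr6:52163001-52164100, which spans the annotated 5′ end of Hoxa3 and was counted in all 3 windows. This stretch lay in the flanks of Hoxa6 and Hoxa7, outside their bodies. In Hoxc, Hoxc4 had 0% and 0.913%, and the other 8 members had 0% in all null libraries.

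The call of relative coverage higher in both null carcasses than in all 4 null hindbrains was met by 9 of 38 members and by 7.76% of all genes (6.21% of protein-coding genes of similar window length). The 9 were Hoxa3, Hoxa6, Hoxa7, Hoxb2, Hoxb3, Hoxb6, Hoxb7, Hoxd1 and Hoxd3, some of which share stretches where their windows overlap. All members were at 0 in null hindbrain, so for them this call equals a peak in both null carcasses. That was seen in 47.6% of all genes, so the 7.76% is not a like comparison. The 3 with the largest mean difference were Hoxb7 (3.04), Hoxb3 (2.86) and Hoxd1 (1.93). The opposite call, hindbrain above carcass, was met by 0 members and 14.8% of all genes, and members at 0 in hindbrain could not meet it. Carcass lay above heart in 9 members, against 14.7% of all genes, and below heart in 0, against 28.5%. All members but Hoxb3 were at 0 in both null hearts too. Hindbrain lay neither above heart (12.6% of all genes) nor below it (20.2%) in any member. Relative coverage was under 1 in all 9 null libraries for 30 of 38 members and for 39.3% of all genes, and over 1 in all 9 for 0 members and 13.2% of all genes. The carcass and hindbrain comparisons share the hindbrain libraries, and the carcass and heart comparisons share the heart libraries or the carcass libraries, so these counts are not separate lines of evidence.

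The peaks of the 2 null carcasses met in 12 stretches, 9 in Hoxb, 2 in Hoxa, 1 in Hoxd and 0 in Hoxc, which summed to 8703 bp with a median length of 550 bp. Counted in steps of the 100 bp grid, those under peaks of both libraries were 0.444 of those under either within the Hox windows. Across the genome the value was 0.589. Of the 12 stretches, 6 touched an annotated Hox exon, 5 of these coding sequence, 4 lay in an intron of a Hox gene and 2 lay outside Hox gene bodies. Their centres lay 0.213 to 6.31 kb from the nearest annotated start of a Hox transcript, with a median of 2.06 kb, and 3 of 12 lay within 1 kb. The stretches held 27.5 CpG per kb, close to the 27.1 of the Hox windows as a whole.

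In each of the 3 clusters the longest stretch lay over a coding exon. The Hoxb3 exon stretch, chr11:96207101-96208300 (1200 bp, 44.2 CpG per kb), overlapped Hoxb3 and the non-coding gene Hoxb3os. The Hoxd3 stretch, chr2:74581901-74582400 (500 bp), held 8 CpG per kb. The pull-down does not separate strands, so peaks over such pairs belong to both genes.

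Within the Hoxb3 intron, chr11:96195601-96196300 was under peaks of both null carcasses, null heart pair a and null liver pair a, and its sequence is the last of the 3 printed above. The adjoining stretch chr11:96196501-96196900 was under peaks of both null carcasses and null liver pair a. Further shared stretches of Hoxb lay at the 3′ end of Hoxb7 and between it and Hoxb6 (chr11:96150601-96151100, chr11:96151201-96151700 and chr11:96152001-96152700). No stretch lay under peaks of both null hearts, and none lay under peaks of any null hindbrain.

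WT libraries listed 1 peak over Hox windows. It covered 400 bp of the Hoxb3 exon stretch in WT liver pair a (chr11:96207701-96208100, 1.46% of the Hoxb3 window), where both null carcasses also had a peak and null liver pair a had none. The other 9 WT libraries listed no base, and no member had a peak in 2 WT libraries of a tissue. Of all genes, 17.2% had a peak in both WT carcasses, 8.55% in at least 2 of the 4 WT hindbrains, 2.74% in both WT hearts and 2.4% in both WT livers. In WT carcass the depth of the lists was enough to bear on this, since 0 of 42012 peaks in pair a and 0 of 35175 in pair b allow a share of up to 0.00714% and 0.00853%, under the 0.0146% of the genome in the windows. The other empty WT lists were shorter. In WT hindbrain A, O and Z, both WT hearts and WT liver pair b, a count of 0 allows a share of 0.0334% to 0.192%, above that of the windows, so an empty Hox locus was not detectable at this depth. In WT hindbrain Q the limit was 0.0139%, just under the share of the windows, but the upper end of the 95% interval was 0.0171%, above it.

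The comparison of genotypes asks whether loss of TDG adds 5fC peaks at Hox genes. In hindbrain, percent covered was 0 in all 4 null and all 4 WT embryos for the pooled windows and for each cluster, and so was relative coverage, so both exact permutation tests gave p = 1 with a difference of 0. Percent covered was higher in all 4 null than in all 4 WT hindbrains for 0 of 38 members, against 39.6% of all genes and 44.5% of protein-coding genes of similar window length. It was lower for 0 members, against 0.0445% of all genes. In carcass the pooled windows went from 0% in both WT to 3.34% and 4.24% in null, while genome coverage went from 0.939% and 0.802% to 5.39% and 7.55%. In heart the change was from 0% in both WT to 0.187% and 0%, and in liver pair a from 0.107% to 0.561%.

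Averaged over the tissues of a litter and over the 6 litters, null was 0.575 percentage points above WT in percent covered (exact two-sided sign-flip test, p = 0.5, adjusted p = 0.625) and 0.0742 above it in relative coverage (p = 0.5 by the same exact test, adjusted p = 0.625). By cluster the percent covered differed by 1.37 points for Hoxb, 0.564 for Hoxa, 0.359 for Hoxd and 0.0172 for Hoxc, with adjusted p of 0.625 to 1 (exact tests). Only pair a and pair b differed from 0, as the 4 hindbrain litters gave 0 in both genotypes. With 4 litters at 0 this exact test cannot give less than 0.5, so it bears neither way on a difference.

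Peaks returned with distance from the clusters. Mean relative coverage in null hindbrain was 0.00272 ± 0.00544 (SD, n = 4) inside the 4 intervals, 0.621 ± 0.111 within 25 kb of either end, 0.957 ± 0.162 from 25 to 50 kb, 1.26 ± 0.102 from 50 to 100 kb, 1.67 ± 0.182 from 100 to 200 kb and 1.77 ± 0.132 from 200 to 500 kb. In null carcass it was 0.473 ± 0.0378 (SD, n = 2) inside, 1.15 ± 0.0366 within 25 kb and 2.28 ± 0.190 from 200 to 500 kb. In null heart it was 0.0234 ± 0.0331 (SD, n = 2) inside and 1.47 ± 0.143 from 200 to 500 kb. The clusters thus sit in surroundings that listed more peaks than the genome in all 9 null libraries at 200 to 500 kb.

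**Figure D4:**
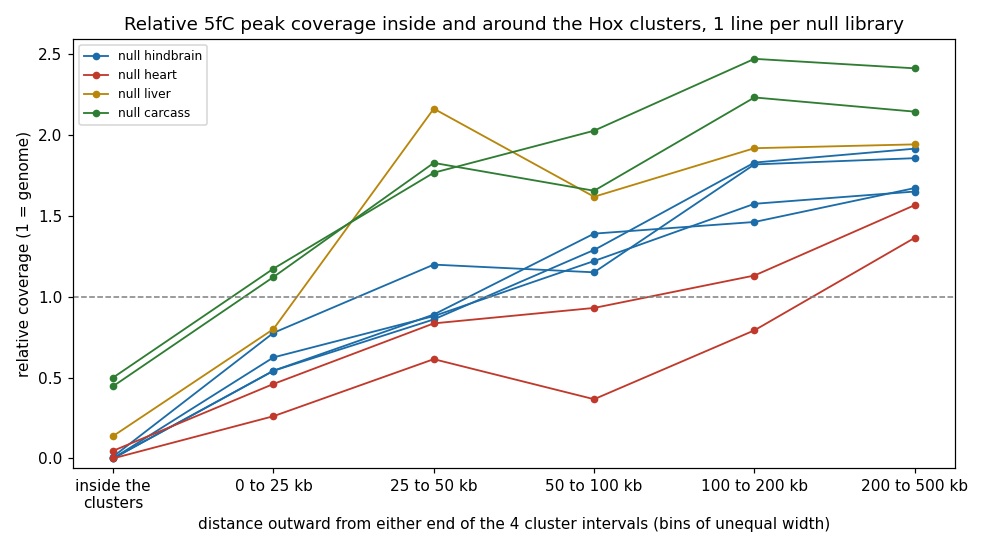
Relative coverage inside the 4 Hox cluster intervals and in bins of distance outward from either end, 1 line per null library, coloured by tissue, with the dashed line at the genome level of 1. Every line is at its lowest inside the clusters and lies above 1 at 200 to 500 kb.

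At some cluster ends the nearest peak lay at about the same distance in several libraries. The nearest peak before Hoxd lay 23.5 kb from the interval in null hindbrains A, O and Z and 23.4 kb in Q. The nearest peak after Hoxa lay 18.2, 18.1 and 18.1 kb away in hindbrains A, Q and Z and 103.2 kb away in O, where the peak was not listed. Both null carcasses had their nearest peak at 18.03 kb on that side.

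Of 9 non-coding genes listed inside the clusters, 6 were matched, all of them microRNAs. Mir10a, Mir10b, Mir196a-1, Mir196a-2, Mir196b and Mir615 had no base under a peak in 8 of 9 null libraries. The exception was Mir10b, covered over 9.83% in null carcass pair b by a peak that also touches Hoxd4. Hoxb3os, a non-coding gene that was not in the list, overlapped peaks of both null carcasses. Exons of 5730446D14Rik, 2700086A05Rik and 0610040B09Rik, annotated genes also not in the list, did so too. Genes next to the clusters (8), pooled by bases, had a mean relative coverage of 1.86 ± 0.224 (SD, n = 4) in null hindbrain and 2.93 ± 0.273 (SD, n = 2) in null carcass. In null heart it was 1.07 ± 0.272 (SD, n = 2), and in null liver pair a 2.26. The genes were split, as 2 of the 8 were over 1 in all 9 null libraries, against 13.2% of all genes. Another 3 were under 1 in all 9, against 39.3% of all genes. Skap1, a T cell adaptor gene beside Hoxb, was covered over 8.57% to 12.4% in null hindbrain, and Smug1, a uracil DNA glycosylase gene beside Hoxc, over 18.5% to 19.7%. Mtx2 was covered there over 0% to 1.77% and Lnp over 0% to 0.792%. Evx1 and Evx2, homeobox genes at the posterior ends of Hoxa and Hoxd, had no base under a peak in any null hindbrain. Evx1 had 5.63% in null heart pair a, and Evx2 had 1.84% in null carcass pair b.

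TALE cofactors, the Meis, Pbx and Pknox partners of Hox proteins, stood above the genome when pooled by bases, and 7 of the 9 were over 1 in all 9 null libraries, against 13.2% of all genes. Relative coverage of the 9 genes together was 2.71 to 2.90 in the 4 null hindbrains, 3.04 and 3.25 in the hearts, 4.10 in the liver and 3.57 and 4.02 in the carcasses. Meis1 was covered over 10.3% to 12.1% in null hindbrain and over 30.3% and 34.5% in null carcass, and Meis2 over 8.17% to 12.9% and over 25.2% and 31.7%. Meis3 went the other way, with no base under a peak in null carcass, heart or liver and 0% to 2.46% in null hindbrain. Of the 9, 7 met the call of higher coverage in all null than in all WT hindbrains, which 39.6% of all genes met. Over the 6 null embryos, the mean difference in relative coverage, Hox windows minus these genes, was -2.99 (SD 0.262, lower in 6 of 6, exact sign-flip p = 0.03125, 0.03125 adjusted over 3 comparisons). In the 4 hindbrain embryos the Hox windows were at 0, so any list with a peak there lies above them. The sign in those embryos was thus set by the Hox zeros in each of the 3 comparisons.

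Homeobox genes outside the clusters (36 genes of the Dlx, Irx, Lhx, Pax, Nkx and other families) lay between when pooled by bases. Relative coverage was under 1 in all 9 null libraries for 23 of the 36, against 39.3% of all genes. The pooled value was 0.965 to 1.51 in null hindbrain, 0.254 and 0.374 in null heart, 0.348 in null liver and 1.04 and 1.23 in null carcass. The mean difference, Hox windows minus these genes, was -0.911 over the 6 embryos (SD 0.455, lower in 6 of 6, exact sign-flip p = 0.03125, 0.03125 adjusted over 3 comparisons). Of these 36, 19 had no base under a peak in any null hindbrain and 16 had none in any null library, among them Dlx1, Dlx2, En1 and En2, against 37.3% and 26.4% of all genes. Pax3, a regulator of the dorsal neural tube and somites, was covered over 8.31% to 12.0% in null hindbrain and over 24.8% and 29.2% in null carcass. The mean difference from the genes next to the clusters was -1.82 (SD 0.227, Hox lower in 6 of 6, exact sign-flip p = 0.03125, 0.03125 adjusted over 3 comparisons). Those genes were also pooled by bases, and 3 of the 8 were themselves under 1 in all 9 null libraries. As the Hox windows were at 0 in the 4 hindbrain embryos, the direction there was fixed for any list with a peak.

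Upstream regulators (15 genes of retinoic acid signalling and axial patterning) had 0.861 to 1.38 in null hindbrain and 1.75 and 1.83 in null carcass. Rara, a retinoic acid receptor gene, was covered over 5.09% to 9.39% in null hindbrain and over 31.7% and 40.1% in null carcass, whereas Cdx2, Cdx4 and Cyp26c1 had no base in any null library. Chromatin regulators (10 genes) had 0.838 to 1.34 in null hindbrain and 1.14 and 1.19 in null carcass. Kdm6b, an H3K27 demethylase gene, was covered over 17.2% to 30.3% in null hindbrain. Bmi1, a Polycomb gene, had no base in any null library.

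**Figure D5:**
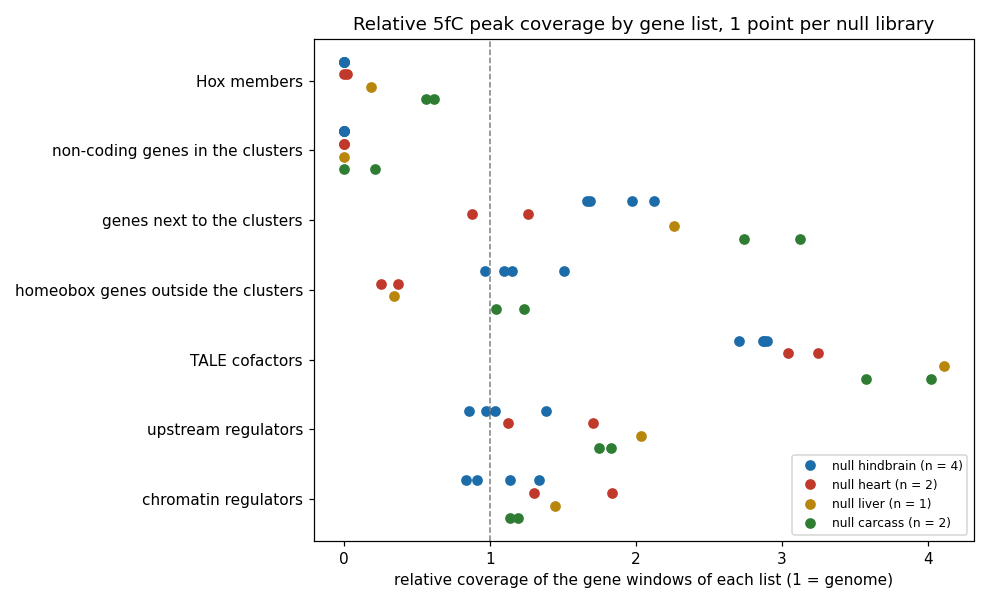
Relative coverage of the gene windows of each list, 1 point per null library, coloured by tissue, with the dashed line at the genome level of 1. Hox members lie at or below 0.619 in all 9 libraries, and TALE cofactors at or above 2.71.

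Peaks were listed in the carcass over windows of anterior and middle Hox genes, and a carcass library holds many cell types. A bulk pull-down cannot tell a modification in few cells from a lower level in all cells. Relative coverage of genes that mark carcass tissues was 3.72 and 4.73 in null carcass and 2.56 to 4.07 in null hindbrain, pooled over 5 genes. The genes went different ways, as Pax3, Myf5 and Meox1 had peaks in both null carcasses, while Tbx6 and Myod1 had none there and Tbx6 was covered over 8.67% to 17.3% in the 4 null hindbrains. That of hindbrain marker genes was 0.456 to 1.51 in null hindbrain and 0.609 and 0.699 in null carcass. Their part in the Hox result was not tested.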

How the data were processed

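5fC was mapped by pull-down and sequencing in 20 libraries of hindbrain, heart, liver and carcass from 12 embryos of 6 litters. According to the labels and methods, the authors trimmed reads with Trim Galore, aligned them to NCBIM37 (mm9) with Bowtie2 and called peaks in each library with MACS. The deposited peak lists used here hold positions only (chromosome, start and end on a 100 bp grid). Counts, heights and depth were not used here, and use of an input library is not given in the sources used here.

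Coverage was the percent of window bases under peaks. Relative coverage divided it by the percent of the ungapped genome (2558509480 bp, 21 chromosomes) under peaks. Gene models came from GENCODE vM1 on NCBIM37, and 164 symbols placed at several loci were left out, as was 1 gene that matched the symbol rule and is not reported here. Tests were exact sign-flip tests over embryos or litters and exact permutation tests over embryos (Python 3.11.15, numpy 2.4.6, scipy 1.17.1), Benjamini-Hochberg adjusted where stated. The first test was planned on log2 relative coverage, which has no value at 0, and was run on relative coverage minus 1. The labels' litter field pairs WT and null embryos, giving litters A, O, Q and Z for hindbrain and pair a and pair b for the other tissues, and by the methods each pair came from the same litter. In hindbrain the Hox deviations are all 0, so their correlation has no value. P-values take embryos or litters as units. In the tests of Hox coverage against the genome, the 4 hindbrain embryos all stood at 0. The values of the other embryos were means over tissues, so tissue and embryo cannot be told apart there. Those p-values reflect the direction shared by the 6 embryos and not a spread between them.

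Named members were the 3 with the highest mean coverage per cluster, those with a peak in at least 2 WT libraries of a tissue (0 members), those with no base in any null library, and the 3 with the largest carcass and hindbrain difference in each direction. Values given for other members complete the 12 with a peak. The longest shared stretches of Hoxb and Hoxd were printed, and other stretches were chosen after their values were seen. Members and gene lists were chosen with earlier results of these data known. Coverage counting was tested on simulated data. The null liver library of pair b entered alternatives only.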

Additional observations from a re-analysis of the deposited data

Results flagged for a closer look

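In 22 groups of 4 null hindbrain libraries, covering gene lists, distances to the nearest peak and bins of distance, 6 held a library far from the other 3, and chance gives about 1 in 20 such groups. Distances to a single nearest peak jump from one peak to the next, and 4 of the 6 were of this kind. The nearest peak after Hoxa lay 103.2 kb away in hindbrain O, against 18.1 to 18.2 kb in the others. The nearest peak before Hoxa lay 13.6 kb away in hindbrain Q, against 21.2 kb in the others. The nearest peak before Hoxb lay 52.5 kb away in hindbrain A, against 23.7 to 28.5 kb. The nearest peak before Hoxd lay 23.4 kb away in hindbrain Q, 1 grid step from the 23.5 kb of the others. Relative coverage of TALE cofactors was 2.71 in hindbrain A, against 2.87 to 2.90. Relative coverage 25 to 50 kb from the clusters was 1.199 in hindbrain Z, against 0.860 to 0.890.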

How the results depend on the processing

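No tested result changed direction under any alternative run: peaks of at least 600 bp, peaks closer than 200 bp merged, windows without flanks or plus 5 kb, 1 interval per cluster, numbers of peaks, expectation from GC content, CpG number or all gene windows, and the null liver library of pair b added. Untested carcass values crossed 1 with the expectation: Hoxb went from 1.42 and 1.31 to 0.739 and 0.735 on CpG number and to 0.761 and 0.738 on GC content, and the anterior group from 1.11 and 1.06 to 0.648 and 0.661 and to 0.674 and 0.670. Matching on GC content or CpG number moved the pooled mean over the 6 null embryos from 0.0928 to 0.0554 and 0.0528. Counted by number of peaks, Hoxb stood at 0.303 of the genome over the 6 null embryos (exact sign-flip p = 0.0625), as 1 embryo no longer lay below 1. Leaving out 1 litter gave exact p = 0.0625, the smallest that 5 embryos allow, with means of 0.0552 to 0.111 for the pooled windows, 0.0495 to 0.104 for Hoxa, 0.131 to 0.274 for Hoxb, 0 to 0.00273 for Hoxc and 0.0294 to 0.0678 for Hoxd. All of the pooled mean came from pair a and pair b, since the 4 hindbrain embryos were at 0, and it was 0.0562 without pair a and 0.0552 without pair b. Without the heart_null replicate 2, members called below heart went from 0 to 1 (Hoxb3). With 1 interval per cluster, the single peak of hindbrain Z gave a null minus WT difference of 0.00998 percentage points (exact p = 1). With the replicate block, that is the 4 litter pairs, the hindbrain differences stayed at 0 (exact p = 1), and with no replicate block the 6 litter difference of 0.575 points had exact p = 0.455. Peak lists carry no depth, so a listed absence depends on each library's threshold, and few peaks in WT libraries limit the genotype comparison.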
